A study of Homo sapiens with 3 samples.

Results

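MYC regions within 2 Mb of a chromosome end were described in P493 cells, a human B cell line with a repressible MYC gene. MYC-bound DNA was recovered by chromatin immunoprecipitation with the N262 antibody and sequenced as single reads (ChIP-seq). The series holds 3 samples, all from P493: an untreated MYC library, a MYC library from cells given MST-312, and an input library of untreated cells that received no antibody. MST-312 is a small-molecule telomerase inhibitor; the sources used here give neither its dose nor its duration. Each library is a single sample, so differences between conditions lack any check by replicates, and none carries a p-value. A region is 1 row of the authors' peak list, and it was taken as lying at a chromosome end when its summit fell in the first or the last 2 Mb of chromosomes 1 to 22 in hg19. By this rule 1872 of 31378 untreated regions (5.97%) and 1518 of 27614 MST-312 regions (5.50%) lay at the ends. The other regions of these chromosomes, 28676 and 25364, are called inside regions below.

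Human chromosomes end in telomeres, tracts of a short repeat bound by the shelterin proteins and extended by telomerase. Next to them lies the subtelomere, a belt of sequence blocks copied between chromosome ends, followed by unique sequence that is rich in genes at many ends. MYC binds DNA as a dimer with MAX, prefers the E-box CACGTG and is found mostly at active promoters, including that of TERT, the gene of the telomerase catalytic subunit, which lies near the end of 5p. The outer 2 Mb thus hold far more than telomeric repeats.

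The MYC libraries had 80489246 (untreated) and 108838301 (MST-312) tags, of which 60805153 and 55400354 were kept after limiting duplicates, 8.89% fewer after MST-312. Redundant rates were 0.24 (untreated), 0.49 (MST-312) and 0.01 (input). The part played by this difference in the values below was not tested. Both lists hold only strong calls, the lowest −log10 q being 13.01 (untreated) and 13.02 (MST-312), so that a site missing from a list may still have been bound at a lower level. All intervals printed here are exact Clopper-Pearson 95% intervals of shares. They describe counting error only, leave out any spread between libraries, and treat regions as independent. Tags carried no molecular identifiers and may be copies of one molecule.

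MYC regions were denser at the chromosome ends than inside the same chromosomes in both libraries. The outer 2 Mb of the 44 ends are 88 Mb of nominal sequence, and they held 21.3 untreated regions per Mb, against 10.3 per Mb inside. The corresponding densities after MST-312 were 17.3 and 9.08 per Mb. The ends were thus 2.07 times as dense as the inside in the untreated list and 1.90 times in the MST-312 list. Untreated regions covered 2.16% of the nominal end sequence and 0.875% of the inside, and MST-312 regions covered 1.47% and 0.643%. The distance from an end region's summit to the next summit of its own list had a median of 6.58 kb in untreated cells and 8.08 kb after MST-312. Inside, these medians were 11.5 and 18.3 kb. The nominal lengths include stretches that hg19 does not resolve, such as centromeres and the short arms of chromosomes 13, 14, 15, 21 and 22. Without these 5 chromosomes the ends were 2.28 and 2.12 times as dense as the inside.

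The higher density at the ends held for most chromosomes taken singly. No region was listed at the short-arm ends of the 5 chromosomes named above, so these were counted over the 2 Mb of the long-arm end, and their inside from the first listed summit on. This count was added after seeing the data. Pooled by chromosome, the ends were the denser on 21 of 22 chromosomes in each list, the exception being chromosome 6 in both. With both ends counted at full length on every chromosome the number was 19 of 22 in each list, and chromosomes 15 and 22 joined the exceptions. Chromosome 19 had the densest ends, with 46.3 untreated regions per Mb at the ends and 30.8 inside. Chromosomes 14, 16 and 17 followed, with 42.0, 41.5 and 40.0 per Mb at the ends and 11.8, 13.5 and 20.5 inside. On chromosome 6 the ends held 5.75 untreated regions per Mb against 7.59 inside. On chromosome 15 the long-arm end held 14.5 per Mb against 13.3 inside, and on chromosome 22 it held 29.0 against 24.9. Where a chromosome has listed regions at both ends, these are pooled in the counts by chromosome, and single ends could be sparser than the inside. The 2 Mb of 3p held 4 untreated regions and those of 3q held 40, against 9.26 per Mb inside chromosome 3. The 2 Mb of 7q held 9 and those of 7p held 50, against 9.13 per Mb inside chromosome 7. Other sparse ends were not compared with their inside in this way. Over the 39 ends with a listed region, density was highest between 500 and 1000 kb from the end, at 26.5 untreated and 21.03 MST-312 regions per Mb. It was 20.5 and 16.9 per Mb in the outermost 500 kb. In the last step within the limit, from 1500 to 2000 kb, it was 23.9 and 19.7 per Mb. Just beyond, from 2000 to 2500 kb, it was 18.9 and 15.1 per Mb, the largest drop between neighbouring steps in each list. From 3500 to 4000 kb it was 14.4 and 12.4 per Mb, still above the 10.3 and 9.08 per Mb of all inside regions.

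**Figure D1:**
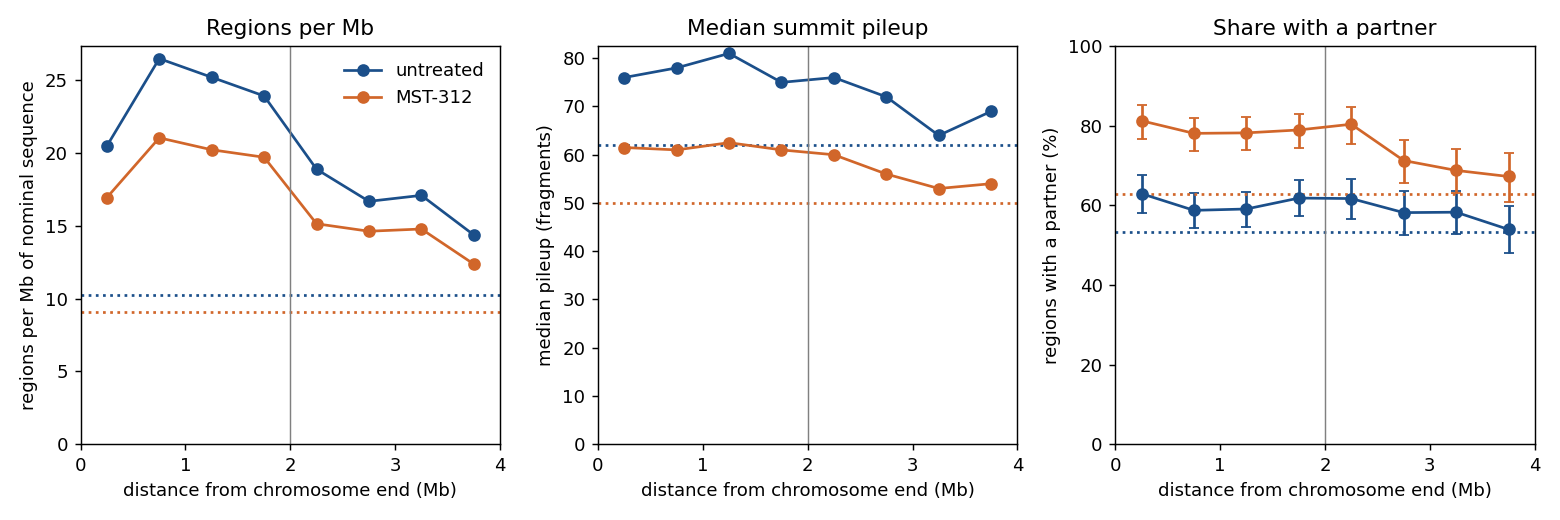
Regions per Mb of nominal sequence (left), median summit pileup in fragments (middle) and share of regions with a partner in the other list (right, with exact 95% intervals) in 500 kb steps from the chromosome end, over 39 ends. Blue is untreated, orange is MST-312, dotted lines are the values of all inside regions and the grey line is the 2 Mb limit; all 3 measures lie above their dotted lines in every step and fall beyond 2 Mb, the pileup and partner share mainly beyond 2500 kb.

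Regions at the ends were unevenly spread. The number per end ranged from 4 to 126 in untreated cells (median 50) and from 8 to 102 after MST-312 (median 39), over the 39 ends. In the untreated list the densest ends were 19p with 126 untreated and 102 MST-312 regions, 9q with 116 and 87, and 16q with 95 and 71. In the MST-312 list the third place went to 17q, with 73 regions and 90 in untreated cells. The 10 densest ends held 47.2% of the untreated and 45.7% of the MST-312 end regions. At the other extreme 3p held 4 untreated and 8 MST-312 regions, 4q held 7 and 12, and 6q held 7 and 8. The counts of the 2 lists had a Spearman correlation of 0.97 over the 39 ends, which share the input library, gene content and base composition of each end.

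The genes known at these ends are of several kinds. In the gene order of RefSeq (GRCh38.p14), 19p begins with the olfactory receptor OR4F17 and continues through CDC34, a ubiquitin-conjugating enzyme, POLRMT, the mitochondrial RNA polymerase, and PTBP1, a splicing regulator. The outer part of 9q holds EHMT1, a histone H3 methyltransferase, and MRPL41, a mitochondrial ribosomal protein. The outer part of 16q holds FANCA, a DNA repair protein, TUBB3, a tubulin, and RPL13, a ribosomal protein. The sparse 3p end begins with CHL1 and CNTN6, neural cell adhesion genes, and 4q with DUX4, a germline and early embryo transcription factor in a repeat array. These genes are examples. Others listed are HCN2 and FGF22 at 19p, CACNA1B at 9q, MC1R at 16q, TRNT1 and RAD18 at 3p, and UFSP2 at 4q. Kinds of gene were not compared between dense and sparse ends. No region was assigned to a gene, because the peak lists are on hg19 and no hg19 annotation was used here. The E-box CACGTG, which reads the same on both strands, was counted in RefSeq promoters (GRCh38.p14, 250 bases before to 50 after each start). Of the 740 protein-coding genes that are the 20 outermost with a listed promoter at each of 37 ends, 93 carried it (12.6%, interval 10.3 to 15.2). Over all 14749 such genes of the table the share was 10.8% (10.3 to 11.3), within the interval of the outermost genes. The set was taken by gene order, and at gene-poor ends such as 3p it reaches well beyond the outer 2 Mb, so the 12.6% is not a share for those windows. The ends 8p and 8q, with 13 and 83 untreated regions, were not among the 37. BSG at 19p, CACNA1B at 9q and TERT at 5p were among the outermost genes with the motif.

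MYC regions at the ends had higher summits and were broader than inside regions of the same list. The pileup counts the extended fragments stacked at a summit. At the untreated ends it had a median of 77 fragments (quartiles 50 and 135), against 62 (42 and 106) inside. At the MST-312 ends the median was 61 fragments (45 and 98), against 50 (36 and 76) inside. The end median was the higher on 20 of 22 chromosomes in each list, the exceptions being 6 and 15. Both ends of a chromosome are pooled in this count, and single ends could lie below the inside. On chromosome 1 the untreated median was 42 fragments at 1q and 94 at 1p, against 62 inside. On chromosome 3 it was 35.5 at 3p and 93 at 3q, against 57 inside. Untreated median widths were 827 bp at the ends and 672 bp inside, and MST-312 median widths were 727 and 561 bp. Regions of at least 2000 bp made up 7.59% of untreated end regions and 5.03% of untreated inside regions. After MST-312 these shares were 3.23% and 1.91%. The median −log10 q was 40.4 at the ends and 29.0 inside in untreated cells, and 29.1 and 21.6 after MST-312.

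The fold enrichment, the authors' ratio of pileup to local background from the input, differed less between ends and inside than the pileup did. Its median was 7.55 at the ends and 6.81 inside in the untreated list, and 6.83 and 6.54 in the MST-312 list. The local background itself, back-calculated from pileup and fold enrichment, was higher at the ends, with medians of 8.68 and 7.71 fragments in the untreated and 7.91 and 6.85 in the MST-312 list. The end background was the higher on 18 of 22 chromosomes in the untreated and 20 of 22 in the MST-312 list. Its part in the higher pileups was not tested. Among the 1000 regions of chromosomes 1 to 22 with the highest fold enrichment, a measure relative to that background, 104 untreated (10.4%) and 97 MST-312 regions (9.70%) lay at the ends. The ends hold 6.13% and 5.65% of all regions of these chromosomes.

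**Figure D2:**
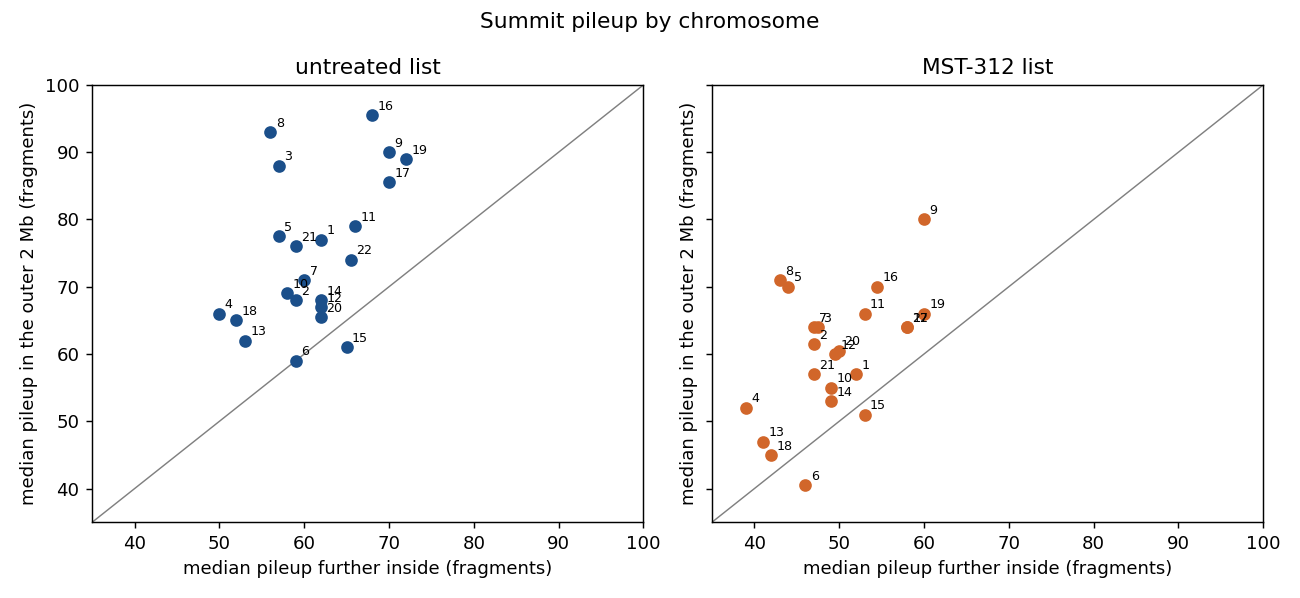
Median summit pileup (fragments) of regions in the outer 2 Mb (vertical axis) against that of regions further inside (horizontal axis), 1 point per chromosome labelled by its number, for the untreated (left) and MST-312 (right) lists; the line marks equal values. In each list 20 of 22 chromosomes lie above the line, and 6 and 15 lie on or below it.

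The leading end regions by fold enrichment appeared in both lists. The leading one lay on chromosome 19 at 1861649 to 1865209 (19p), where 569 fragments stacked at the summit in untreated cells (fold enrichment 84.5). Its MST-312 partner at 1863299 to 1865174 had 281 fragments and 45.0-fold enrichment, also the highest among the MST-312 end regions. The untreated region spanned 3561 bp and met 3 separate MST-312 regions, of which the strongest spanned 1876 bp. The second untreated end region lay on 7p at 765455 to 768250, with a pileup of 499 fragments, against 322 in its partner. On 17q the region at 80054933 to 80058020 had a pileup of 472 fragments and its partner 310. At these sites the summits of the libraries lay 15, 20 and 12 bp apart.

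The long arm of chromosome 16 held a pair of these leading regions. The region at 89626386 to 89628096 had a pileup of 527 fragments in untreated cells and 294 after MST-312. The region at 89786527 to 89789762 had 361 and 278 fragments. The pileup after MST-312 was the lower at both. The other untreated leaders were on 19p at 1590635 to 1593433 (435 fragments, 213 in the strongest of its 2 partners), on 8q at 145514135 to 145516562 (387 and 231) and on 9q at 139621206 to 139623631 (738 and 492). The 9q region had the highest pileup of any end region in each list. Among the 8 leading MST-312 end regions, 6 were partners of these untreated leaders. The other 2 were on 19p at 1670693 to 1672958, with 360 fragments against 448 in its untreated partner, and on 1q at 249167665 to 249168702, with 194 against 257. The 1q site lies 82.6 kb from the chromosome end, the nearest to an end of all these leaders.

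Overlap of 1 bp or more with any region in the other list made a region's partner. Of the 1872 untreated end regions, 1132 had an MST-312 partner (60.5%, interval 58.2 to 62.7), against 53.4% (52.8 to 54.0) inside and 53.6% over the whole list. Of the 1518 MST-312 end regions, 1199 had an untreated partner (79.0%, 76.8 to 81.0), against 62.8% (62.2 to 63.4) inside and 63.3% over the whole list. The end share was the higher on 19 of 22 chromosomes for untreated regions, the exceptions being 11, 15 and 18, and on 20 of 22 for MST-312 regions, the exceptions being 6 and 15. Weighting the inside regions to the chromosomes of the end regions gave inside shares of 53.7% and 64.6%. With this weighting the end share stood above the inside share in both lists, by more in the MST-312 list.

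At matched strength, end and inside regions had like shares in the untreated list and unlike shares in the MST-312 list. Each list was divided into 4 equal parts by −log10 q. Untreated end regions had partners in 16.4% (12.7 to 20.8), 31.2% (26.8 to 35.9), 68.6% (64.2 to 72.8) and 96.7% (95.03 to 97.96) of cases from the weakest to the strongest part. The inside shares were 12.7%, 32.1%, 72.0% and 97.7%, each within those intervals. MST-312 end regions had partners in 34.5% (28.6 to 40.8), 63.8% (58.2 to 69.1), 90.9% (87.7 to 93.5) and 99.3% (98.1 to 99.8) of cases. The inside shares of 22.7%, 46.0% and 84.9% in the weaker 3 parts lay below these intervals, and that of 99.1% in the strongest part lay within its interval. Weighted to the strength of the end regions, the inside share was 61.2% for untreated and 71.6% for MST-312 regions, and weighted to strength and chromosome together it was 61.0% and 72.5%. The end shares were 60.5% and 79.0%. Untreated regions cover 2.16% of the end sequence and 0.875% of the inside, and MST-312 regions cover 1.47% and 0.643%. A weak call of either list thus has more sequence of the other list around it at the ends. The part of this in the shares of either list, including the 79.0%, was not tested.

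**Figure D3:**
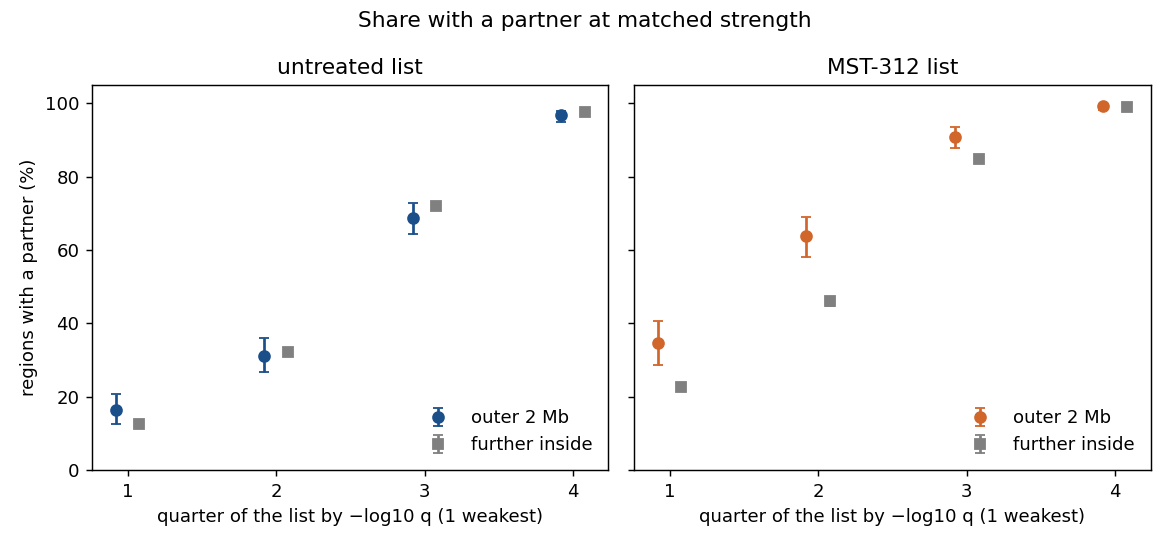
Share of regions with a partner in the other list (vertical axis, %) in 4 equal parts of each list by −log10 q (horizontal axis, 1 weakest), for regions in the outer 2 Mb (coloured circles) and further inside (grey squares), with exact 95% intervals. In the untreated list (left) both kinds lie close together, and in the MST-312 list (right) the end regions lie above the inside ones in parts 1 to 3.

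The list of end regions was 18.9% shorter after MST-312 (354 fewer regions), and that of inside regions was 11.5% shorter. Covered length was 31.7% less at the ends and 26.5% less inside. The order of the first pair of values depends on the strength threshold. With −log10 q of at least 26, a threshold set with earlier results of these lists known, the ends held 1178 untreated and 833 MST-312 regions, 29.3% fewer, against 31.9% fewer inside. Among strong calls the ends therefore showed no larger shortfall than the inside.

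Single ends differed in how their numbers compared between the lists. MST-312 regions were fewer at 30 of 39 ends, equal at 2p and 10p, and more numerous at 1q, 3p, 4q, 6p, 6q, 7q and 18p. Those 7 ends had 4 to 23 untreated regions each, against a median of 50 over the 39 ends. The shortfall was widest at 14q, with 84 untreated and 54 MST-312 regions (35.7% fewer), followed by 13q with 51 and 33 (35.3%), 19q with 59 and 39 (33.9%), and 5p with 42 and 28 (33.3%). The 14q end carries the immunoglobulin heavy chain locus, which is rearranged and transcribed in B cells. The 5p end carries TERT, SDHA, a mitochondrial enzyme, and TRIP13, a mitotic checkpoint factor. In the 5p window 22 of 42 untreated regions had a partner (52.4%), as did 23 of 28 MST-312 regions (82.1%). Among ends with at least 50 untreated regions the shortfall was smallest at 1p, with 70 and 66, and at 4p, with 60 and 55.

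**Figure D4:**
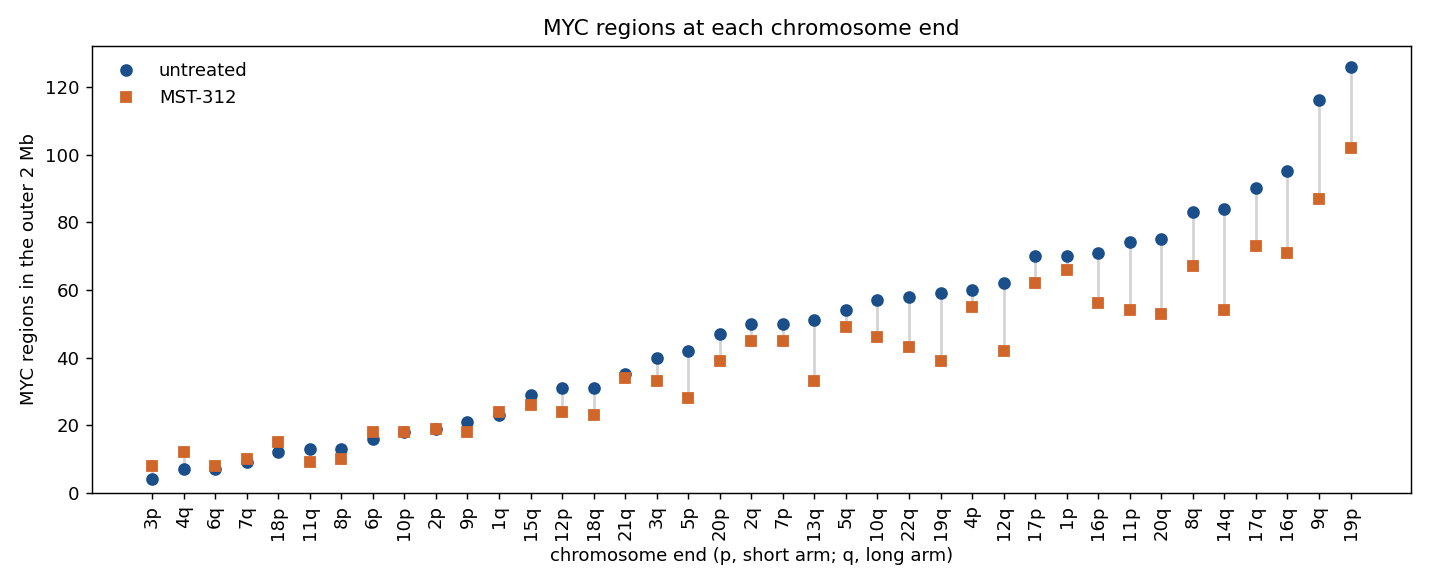
Number of MYC regions in the outer 2 Mb (vertical axis) at each of the 39 chromosome ends with a listed region (horizontal axis, ordered by the untreated number), for untreated (blue circles) and MST-312 (orange squares) lists. MST-312 regions are fewer at all 20 ends with at least 50 untreated regions, by 5.71% to 35.7%, and the 7 ends with more MST-312 regions lie in the left part, at 23 untreated regions or fewer.

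Sparse and dense ends also differed in strength and in partners. The 20 ends with at least 50 untreated regions held 1455 untreated and 1142 MST-312 regions (21.5% fewer), of which 63.0% and 85.2% had a partner. The 10 ends with fewer than 20 untreated regions held 118 and 127 regions, of which 40.7% and 38.6% had a partner. These bounds were chosen after seeing the counts, and a split by the untreated count favours low untreated numbers at the sparse ends. Split by the MST-312 count instead, the 11 ends with fewer than 20 MST-312 regions held 139 untreated and 145 MST-312 regions, and the 12 ends with at least 50 held 1014 and 800. Median pileups were 82 and 66 fragments at the dense ends and 54 and 40 at the sparse ends. The local background had medians of 9.06 and 8.26 fragments at the dense and 6.75 and 5.27 at the sparse ends. At 11q, the most extreme of the sparse ends, 1 of 13 untreated and 1 of 9 MST-312 regions had a partner.

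Values could be set side by side where regions of the lists met one to one. There were 1004 such pairs at the ends and 13934 inside. The untreated median pileup was 115 fragments at the ends (quartiles 75 and 180) and 99 inside. The MST-312 median pileup of the same pairs was 73 fragments at the ends (54 and 112) and 67 inside. Pileups are unscaled, and the MST-312 library kept 8.89% fewer tags. The MST-312 pileup was the lower in 883 end pairs (87.9%), equal in 11 and higher in 110; inside it was the lower in 85.5%. The MST-312 region was the narrower in 79.7% of end pairs and 75.05% of inside pairs, with median widths of 1151 and 854 bp at the ends. Summits lay a median of 45.5 bp apart at the ends and 46 bp inside. By end, the MST-312 median was the lower at 38 of 39 ends, the exception being 2p, and at all 29 ends with at least 10 pairs. Each list's median was taken separately here. At 2p, with 7 pairs, the medians were 56 (untreated) and 80 (MST-312) fragments, but the MST-312 pileup was the higher in 2 pairs. The summits of shared sites were thus lower after MST-312 at nearly every chromosome end, as they were further inside. An untreated region was split over several MST-312 regions in 82 cases at the ends (4.38%) and in 3.01% of inside regions.

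Regions without a partner were weaker than those with one, at the ends as inside. The 740 untreated end regions without a partner had medians of 50 fragments in pileup, 495 bp in width and 19.1 in −log10 q. The 1132 with a partner had 116 fragments, 1196 bp and 79.9. The 319 MST-312 end regions without a partner had medians of 38 fragments, 405 bp and 15.5. Of these, 26 (8.15%) reached a −log10 q of 26, against 5.22% of those inside. Of the untreated end regions without a partner, 202 (27.3%) reached that value, against 20.7% of those inside. With or without a partner, it was reached by 62.9% of untreated end regions and 53.6% of untreated inside regions, and by 54.9% and 41.3% in the MST-312 list. Untreated end regions without a partner also lay nearer to a region of the other list. Among them 14.6% had one within 1 kb, against 10.4% inside, and the median gap was 9.45 kb against 17.9 kb. MST-312 regions were 1.90 times as dense at the ends as inside, and the part of this in the shorter gaps was not tested.

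End regions without a partner included strong calls, and the 5 with the highest fold enrichment in each list are named here. In untreated cells the strongest by fold enrichment lay on 21q at 47742315 to 47745522, 3208 bp wide, with 129 fragments and 19.3-fold enrichment. No MST-312 region lay nearer to it than 32.2 kb. It was followed by regions on 1p at 955407 to 956902 (124 fragments), on 14q at 105886627 to 105887222 (121), on 5p at 1594148 to 1595087 (131) and on 19q at 58513493 to 58514836 (139). The closest MST-312 calls lay 6.36, 4.92, 38.8 and 5.83 kb from these, so that none of the 5 depends on a gap of 1 kb. In the MST-312 list the strongest without a partner lay on 14q at 105818554 to 105819852, with 87 fragments and a fold enrichment of 11.5. Then came 2q at 242067021 to 242067542 (100 fragments), 2p at 655544 to 656155 (73), 6q at 170615254 to 170616060 (69) and 6p at 474795 to 475222 (41). The 6p region had a fold enrichment of 9.17 on a local background of 3.58 fragments, close to the lowest of its list. Its pileup lay below the lower quartile of the MST-312 end regions, 45 fragments. The 14q end thus appears in both sets.

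The outermost 100 kb held few regions, and some stood on a high local background. There were 45 untreated and 36 MST-312 regions there, at 14 ends in each list. Of these, 68.9% (53.4 to 81.8) and 91.7% (77.5 to 98.2) had a partner. Their number was 11.5 and 9.23 per Mb of nominal sequence, below the 22.7 and 18.8 per Mb found from 100 to 500 kb. Sequence that is unresolved in hg19, or to which reads cannot be placed, was not taken out of these lengths. The part of this in the lower density was not tested. The nearest untreated region to any end lay on 2p at 19576 to 19851, 19.7 kb from the end, with 34 fragments in each library. A second 2p region at 24155 to 24671 had 54 fragments, and 44 in its partner. The nearest MST-312 regions to an end lay on 1q, 10.8 kb from it at 249239596 to 249239823, and on 18p, 12.6 kb from it at 12390 to 12743, with 33 and 41 fragments. Both had no partner and a −log10 q of 13.5 and 14.1, close to the lowest listed value. On 17p an MST-312 region at 27328 to 27594, with 40 fragments, also had no partner. The untreated regions next nearest to an end were on 4p at 28617 to 29477 (136 fragments, 127 in its partner) and 29785 to 30061 (56), and on 1q at 249219338 to 249219716 (61, and 41 in its partner).

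Local background over 3 times the list median was rare, yet more frequent at the ends. It was found in 14 untreated end regions (0.748%, against 0.275% inside) and 14 MST-312 end regions (0.922%, against 0.319%). Of these, 4 untreated and 6 MST-312 regions lay in the outer 100 kb of 4p, and 5 and 6 lay at 9q. The 4p region at 51225 to 52505 had a pileup of 533 fragments on a background of 42.4, and its partner had 429 on 38.7. This was the second highest pileup of the MST-312 end regions, while its fold enrichment was only 10.8. Without such regions, 60.1% of untreated and 78.7% of MST-312 end regions had a partner.

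Regions on either side of the 2 Mb limit had overlapping pileups. Just within it lay untreated regions on 17p at 1998283 to 1998807 (48 fragments) and 17q at 79197003 to 79197573 (183). Just beyond it lay untreated regions on 8q at 144363536 to 144364176 (204) and 9p at 2000022 to 2000622 (52). In the MST-312 list the corresponding regions within the limit were on 17p at 1998233 to 1998833 (62) and 8q at 144365139 to 144365711 (38), and those beyond it on 8q at 144363640 to 144364298 (130) and 9p at 2000097 to 2000636 (46).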

How the data were processed

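MYC ChIP-seq peak lists of 1 untreated and 1 MST-312 library were analysed; the input served as the control of both. Per the submitters' processing notes, CASAVA 1.8 and Bowtie2 2.2.3 were used, with the hg19 build. Per the file headers, peaks were called in each library with MACS 2.0.10.20131216, with fragments set to 200 bp, a p-value threshold of 0.05, up to 3 tags kept at a position, and the local background taken from 1000 and 10000 bp windows. The deposited pileup is a signal in fragments, unscaled since the larger input was scaled down. The deposited fold enrichment is a ratio to the local background, here back-calculated as (pileup + 1) / fold enrichment − 1. The deposited −log10 q values carry no minus sign in their name. The authors' filter that leaves a lowest −log10 q of 13.01 is not stated.

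Distances were taken from summits to the ends of hg19 chromosomes, whose lengths sum to the genome size of 3095677412 bp in the headers. Regions on X and Y (830 and 732) were left out. Overlap was computed with Python 3.11.15, pandas 2.3.3 and numpy 2.4.6, gave the same partners as bedtools 2.31.1 and was tested on simulated data; intervals used scipy 1.17.1 and figures matplotlib 3.10.9. No test between conditions was run. The members and lists were chosen with earlier results of these data known. Named regions are the 8 end regions with the highest fold enrichment, the 5 strongest without a partner and the 5 nearest an end in each list, and the 2 on either side of the limit; others were chosen after seeing their values. Gene lists that needed an hg19 annotation were not used.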

Additional observations from a re-analysis of the deposited data

How the results depend on the processing

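No replicate could be left out, and no test was made. No paired analysis was possible because each group has 1 sample. In all 75 alternative values of density, pileup, width and partner share, the ends lay above the inside. The settings share most of their regions, and some of these differences lay within counting error. The 75 leave out the shares at matched strength. There, 60.5% of untreated end regions had a partner, against an inside share of 61.2% weighted to their strength. Of 96 alternative values, 58 lay inside the reported value's own interval (for counts, less than 1.5 times away), 37 moved and 1 reversed. The reversed one is the share of regions fewer after MST-312 at the ends (18.9%, inside 11.5%), which was 29.3% against 31.9% inside at −log10 q of at least 26, and moved to 11.2% against -0.59% inside (slightly more MST-312 than untreated regions) with the untreated list shortened to the length of the MST-312 list; the cause was not tested. Values below are for untreated, then MST-312. With 1 Mb the ends held 915 and 740 regions. With 5 Mb they held 3918 and 3242, the density ratios were 1.78 and 1.66, the median pileups 73 and 59, and the MST-312 partner share 75.4%. With both lists cut to −log10 q values from 26 up they held 1178 and 833, with density ratios of 2.43 and 2.53, median pileups of 115 and 93 and partner shares of 62.7% and 93.0%. With that threshold only in the list asked about, the shares were 82.9% and 96.9%, against 82.0% and 95.3% inside. The shortened untreated list had a median pileup of 85 and a share of 65.0%. Without chromosomes 13, 14, 15, 21 and 22 the density ratios were 2.28 and 2.12. The partner shares were 43.6% and 53.8% with summits within 100 bp, 48.5% and 59.7% with at least 50% of both regions shared, and 66.2% and 81.2% with a 1 kb gap. In pairs with summits within 100 bp the median pileups were 125.5 and 79. The settings without the outer 100 kb, with only ends that hold a region, with the threshold in 1 list and for the share of fewer regions were added after seeing the data. Lost calls near the lowest listed −log10 q limit what the partner shares can show. In the count of 58, the intervals of medians came from ordered values and those of density ratios were converted from intervals of shares. The interval of the percent fewer treated the shortfall as a share of untreated regions, although MST-312 regions are not a subset of these.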
